A study of Mus musculus with 49 samples.

Results

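Bmi1-GFP cells of the mouse small-intestinal crypt were profiled by RNA sequencing 36 h after whole-body irradiation with 10 Gy. They make up 1 of the 25 RNA libraries of the series analysed here and were chosen by their label. That library was set against the 3 libraries of untreated Bmi1-GFP cells, named control replicates 1, 2 and 3 and always listed in that order. All 4 held adult epithelial cells of Bmi-1GFP/+ mice on a B6;129 mixed background; GFP-positive cells were sorted from crypts of the proximal small intestine after the villi had been scraped away, and the controls had no treatment. GFP stands in for the Bmi1 gene in these mice, so the sort selects cells that use that gene and not a single cell type. The labels do not say how many mice each library holds, or whether any share a litter or a day. With 1 irradiated library and no replicate of it, no test was run, and everything below describes how that library lies relative to the spread of the 3 controls.

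The crypt is the proliferative compartment of the intestinal epithelium. Stem cells marked by Lgr5 at its base feed dividing progenitors, which become absorptive enterocytes or secretory cells: goblet, Paneth, enteroendocrine and tuft cells. Bmi1 encodes a Polycomb protein and has been used as a mark of slowly cycling cells above the crypt base that were proposed to act as a reserve when stem cells are lost. Ionising radiation breaks DNA and activates the transcription factor p53, which stops division and can trigger apoptosis, and surviving cells later rebuild the crypt.

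Levels are CPM, a gene's reads scaled to a common library size, after correction with trimmed mean of M values (TMM), a method that limits the influence of a few very abundant genes. Differences are irradiated minus the mean of the controls on the log2 CPM scale with a prior count of 2, so they understate changes of low genes, and a gene was called higher or lower when it lay more than 1 log2 unit beyond the highest or lowest control. Of 13498 genes with 1 CPM or more in at least 1 of the 4 libraries, 1895 were called higher (14.0%) and 2788 lower (20.7%), and the median gene differed by -0.06. The irradiated library held 25275201 counts and the controls 14423446, 15858033 and 20271364. Although it was the deepest, it had reads of 14546 genes against 15799 to 16047, and its 50 most abundant genes took 25.2% of counts against 14.1% to 15.1%. Its TMM factor was 0.653 against 1.12 to 1.26, so the scaling matters: with library totals alone the median gene differed by -0.94, and 572 genes were called higher and 5319 lower, which moves the share of calls that were higher from 40.5% to 9.71%. In the controls themselves, the range over 3 libraries exceeded 1 log2 unit for 17.9% of genes. With a margin of 0, 5567 genes lay above every control and 5942 below, so a place outside the range is common. Counts for gene lists are over members that passed the 1 CPM filter, with the number listed in brackets. They are to be read against the 14.0% of all genes called higher and the 20.7% called lower. A member that passed only through the group where it was high had to differ. The counts therefore describe the members and support nothing further.

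Epithelial markers were at high levels in all 4 libraries. Epcam, a surface protein of epithelial cells, stood at 3497 CPM against 1598, 1485 and 1917 CPM, above each control and short of a call. The keratin gene Krt8 was at 6307 CPM against 5049, 4980.4 and 4555 CPM. Bmi1 itself, the gene the reporter follows, was at 27.4 CPM against 21.7, 23.2 and 27.6 CPM and so lay inside the control range. Among the other proposed markers of reserve stem cells, Hopx was at 161 CPM against 189, 189 and 183 CPM, and Lrig1 at 26.7 CPM against 46.4, 70.7 and 43.2 CPM, neither of them called. Of 12 genes on that list (12 listed), 1 was called higher and 4 lower. The higher one was Clu, which encodes the secreted chaperone clusterin and marks a cell state seen during crypt repair (29.6 CPM against 5.45, 4.27 and 9.30 CPM), and the lower ones included the insulin-like growth factor receptor gene Igf1r (1.03 CPM against 7.88, 7.33 and 8.33 CPM) and Nfix (13.1 CPM against 49.1, 40.1 and 48.4 CPM).

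**Figure D1:**
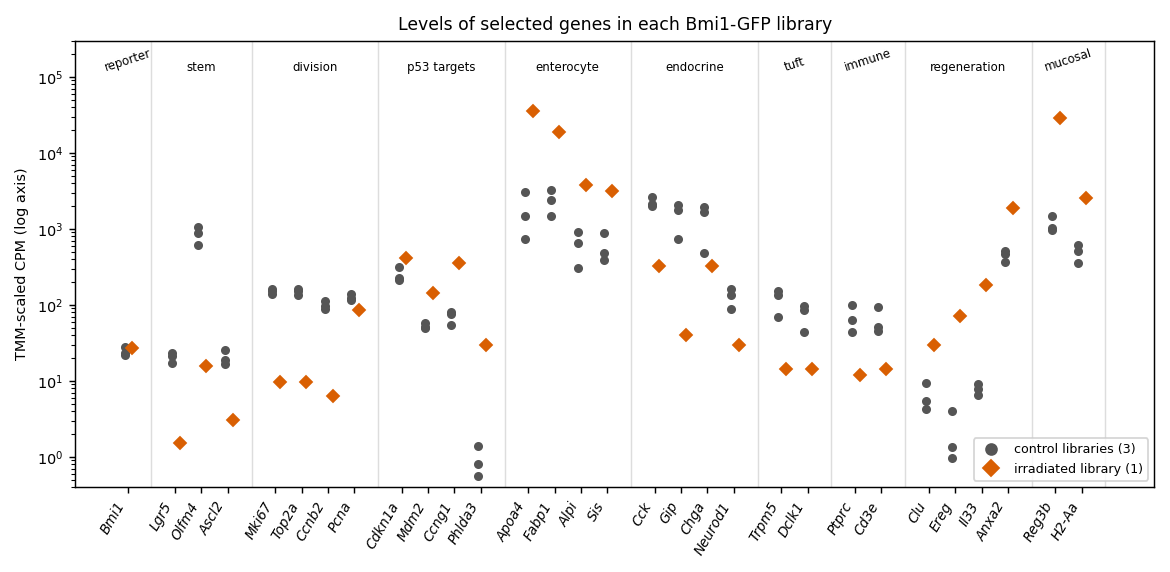
TMM-scaled CPM on a log axis for 30 genes in each Bmi1-GFP library; grey circles are the 3 control libraries and orange diamonds the irradiated library. Bmi1 lies inside the control range, stem cell, division, endocrine, tuft and lymphocyte genes lie below it, and enterocyte and regeneration genes lie above it.

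Transcripts of crypt base stem cells were low after irradiation. Olfm4, a secreted glycoprotein of crypt base cells, stood at 15.6 CPM against 612, 1058 and 892 CPM, a difference of -5.73 on the log2 scale, and did not overlap the controls. Lgr5, the R-spondin receptor that defines these stem cells, was at 1.52 CPM against 17.2, 21.5 and 23.6 CPM, which rests on 25 reads in the irradiated library (exact 95% Poisson interval 0.981 to 2.24 CPM, counting error only). Smoc2, a matricellular protein gene of the same cells, was at 7.88 CPM against 119, 165 and 161 CPM. Of 44 stem cell and Wnt target genes (46 listed), 20 were called lower and 4 higher, with a median difference of -1.22. Ascl2, the transcription factor that maintains Lgr5 cells, belonged to the lower genes (3.03 CPM against 16.5, 25.4 and 18.9 CPM).

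Wnt target genes on that list differed among themselves. Axin2, a negative feedback regulator that Wnt signalling induces, was at 14.8 CPM against 17.7, 19.2 and 16.5 CPM and Rnf43, the ubiquitin ligase that removes Wnt receptors, at 28 CPM against 29.1, 45.2 and 31.1 CPM, and neither was called. Sp5, a transcription factor gene induced by Wnt, was called higher (46.5 CPM against 13, 10.5 and 14.5 CPM), as was Phlda1 (204 CPM against 48.4, 37.6 and 35.1 CPM). Notum, a secreted enzyme that inactivates Wnt proteins, reached 2.24 CPM against 0.232, 0 and 0.0881 CPM, a low level that rests on 37 reads. The most abundant member without a call was the vitamin D receptor gene Vdr (301 CPM against 365, 446 and 463 CPM), and the cyclin D2 gene Ccnd2 was not called either (529 CPM against 347, 221 and 314 CPM). Myc, which Wnt signalling also drives in crypts, was called lower (27.2 CPM against 63.3, 114 and 85 CPM).

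The Notch pathway holds crypt progenitors in the absorptive fate. It gave 8 lower and 2 higher of 30 genes (36 listed), against 20.7% lower and 14.0% higher among all genes. The median difference of the pathway was -0.79. Hes1, its main transcriptional target in the crypt, stood at 21.8 CPM against 66.2, 71.2 and 53.2 CPM and Notch1 at 8.85 CPM against 17.9, 31.2 and 23.6 CPM, both called lower. The Notch inhibitor gene Numb was called higher (193 CPM against 71.8, 60.4 and 86.5 CPM).

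Genes of mitosis had the largest share of lower calls among the 38 lists. Of 70 genes (71 listed) of the spindle, kinetochore and mitotic cyclins, 68 were called lower and 0 higher, against 20.7% of all genes called lower, with a median difference of -3.07; none of the library scalings changed this direction. Mki67, the proliferation marker Ki-67, stood at 9.64 CPM against 139, 152 and 164 CPM. Top2a, the topoisomerase that separates sister chromatids, was at 9.70 CPM against 133, 162 and 153 CPM, and the cyclin B2 gene Ccnb2 at 6.30 CPM against 87.5, 95.5 and 111 CPM, so that the control mean was 15.4 and 15.5 times the irradiated level. Cdc20, the activator of the anaphase-promoting complex, was at 6.49 CPM against 103, 106 and 108 CPM. In all 4 of these genes the controls lay close together and far from the irradiated library. The summed CPM of the list was 582 in the irradiated library against 3654, 4151 and 4322 in the controls. The 2 members not called lower were the checkpoint gene Bub3 (56.9 CPM against 104, 117 and 109 CPM) and the securin gene Pttg1 (44.6 CPM against 67.9, 46.2 and 42.5 CPM), whose copies and pseudogenes can share reads.

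Promoters of these genes are known for CCAAT boxes. They are also known for a cell cycle genes homology region (CHR), through which division genes are switched off in resting cells. Promoters are shown for 4 of the lowered genes because so many members of the list were called lower. The windows run from 120 bases before to 30 after the RefSeq start (GRCm38.p6), 5′ to 3′ along the gene, with CHR matches (TTTGAA or TTCGAA, either strand) and CCAAT (either strand) in capitals. The 4 were picked after their values and matches were seen.
Ccnb2 (chr9:70421525-70421674, minus strand): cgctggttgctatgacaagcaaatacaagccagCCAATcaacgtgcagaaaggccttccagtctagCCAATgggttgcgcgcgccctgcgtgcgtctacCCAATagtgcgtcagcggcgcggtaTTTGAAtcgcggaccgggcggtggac
Cdc20 (chr4:118437314-118437463, minus strand): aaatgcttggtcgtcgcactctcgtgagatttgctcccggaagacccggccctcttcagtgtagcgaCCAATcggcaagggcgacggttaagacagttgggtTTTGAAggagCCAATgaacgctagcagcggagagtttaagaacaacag
Top2a (chr11:99024160-99024309, minus strand): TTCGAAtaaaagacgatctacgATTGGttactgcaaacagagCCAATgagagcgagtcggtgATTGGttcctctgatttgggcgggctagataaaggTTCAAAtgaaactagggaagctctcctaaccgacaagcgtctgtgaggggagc
Mki67 (chr7:135716350-135716499, minus strand): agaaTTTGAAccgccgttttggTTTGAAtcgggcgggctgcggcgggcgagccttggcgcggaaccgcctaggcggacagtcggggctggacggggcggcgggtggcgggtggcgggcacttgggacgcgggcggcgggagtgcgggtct
In the full windows of 250 bases before to 50 after a start, 42 of 57 mitosis genes matched to RefSeq held a CHR match (73.7%), against 16.4% of the 10207 genes kept that matched and 19.2% of all windows. CCAAT was in 42 of 57 of them, against 42.7% of the genes kept. Among all genes called lower, 19.3% held a CHR match, and among those called higher 16.4%. A match is only a run of letters and was not tied to binding here.

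DNA replication genes showed the same direction with a smaller size. Of 62 genes (62 listed), 42 were called lower and 0 higher, and the median difference was -1.75. Mcm5, a subunit of the replicative helicase, stood at 10.4 CPM against 59.6, 87.6 and 67.2 CPM, the thymidine kinase gene Tk1 at 4.91 CPM against 57.1, 57.8 and 69.2 CPM and the polymerase delta gene Pold1 at 2.91 CPM against 39.7, 54.6 and 33.6 CPM. E2f1 and E2f8, transcription factors of the S phase programme, were at 1.03 CPM against 14.3, 11.5 and 10.8 CPM and at 1.09 CPM against 20.1, 25 and 24.5 CPM. The replication clamp gene Pcna, which p53 can also induce, was the most abundant member without a call (86.6 CPM against 122, 116 and 139 CPM). An E2F site (TTTCGCGC, TTTGGCGC, TTTCCCGC or TTTGCCGC, either strand) was in the promoter windows of 18 of 52 of these genes (34.6%), against 4.43% of all matched genes kept.

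Linker and core histone genes, mostly expressed while DNA is copied, gave 16 lower and 1 higher of 25 (68 listed). Their summed CPM was 282 against 264, 271 and 228 in the controls, and most of the irradiated sum came from Hist1h2bc alone. Hist1h1b stood at 0.849 CPM against 34, 25.2 and 25.1 CPM. Hist1h2bc, whose transcript can be polyadenylated outside S phase, was the higher one (205 CPM against 75.5, 62.6 and 72.8 CPM). Reads of histone genes can be shared between near-identical copies, so single values are uncertain.

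DNA repair genes were low as well. Of 58 genes (59 listed), 34 were called lower and 0 higher, with a median difference of -1.29. The histone variant gene H2afx, whose protein marks double-strand breaks, stood at 18.4 CPM against 111, 121 and 125 CPM. The damage kinase genes Atm (6.42 CPM against 16.8, 16.9 and 19.2 CPM) and Chek1 (2.00 CPM against 5.68, 10.9 and 11 CPM) were also called lower. Genes of end joining were mixed: the ligase gene Lig4 stood at 17.8 CPM against 7.71, 9.09 and 11.2 CPM, Xrcc4 at 10.4 CPM against 8.52, 8.33 and 7.84 CPM and Prkdc at 14.4 CPM against 15.1, 20.5 and 20.8 CPM, none of them called, while Xrcc6 was called lower (23.7 CPM against 48.8, 47.8 and 47.7 CPM). Many members of this list are themselves cell cycle genes, and the part that division plays in these values was not tested.

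Regulators of the G1 phase split. Of 25 genes (26 listed), 9 were called lower and 3 higher, with a median of -1.02. The inhibitor genes Cdkn1b (6.73 CPM against 18.1, 19.3 and 17 CPM) and Cdkn1c (29.8 CPM against 119, 88.9 and 67.4 CPM) were lower, as were the kinase genes Cdk2 (7.09 CPM against 40.9, 52.8 and 38.9 CPM) and Cdk4 (64.2 CPM against 185, 219.8 and 211 CPM). The inhibitor gene Cdkn2b was higher (290.2 CPM against 112, 84.7 and 99.6 CPM), and so was the retinoblastoma gene Rb1 (147 CPM against 59.1, 48.3 and 54.7 CPM).

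Target genes of p53 were higher in part. Of 46 (50 listed), 18 were called higher (14.0% of all genes were) and 3 lower, with a median difference of 0.75, which became -0.11 with library totals alone (8 higher and 6 lower). Phlda3, an inhibitor of Akt signalling, stood at 30.1 CPM against 1.39, 0.552 and 0.793 CPM, a difference of 4.98. Eda2r, a receptor of the tumour necrosis factor family, was at 11.9 CPM against 0.812, 0.552 and 0.176 CPM. Pmaip1, the cell death protein Noxa, was at 394 CPM against 47.8, 45.7 and 74 CPM, and the cyclin G1 gene Ccng1 at 356 CPM against 53.9, 76.6 and 80.4 CPM. Mdm2, the ubiquitin ligase that degrades p53, was called higher too (143 CPM against 51.1, 50.0 and 58.2 CPM).

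Other known targets were not called. Cdkn1a, which encodes the cell cycle inhibitor p21, stood at 413 CPM against 311, 214 and 223 CPM, above every control but by less than the margin. Bax (95.7 CPM against 64.5, 67.9 and 73.1 CPM) and Bbc3, which encodes Puma (27.5 CPM against 19.3, 14.9 and 15.2 CPM), lay in the same position. That position is common, since 5567 of all 13498 genes lay above every control. Btg2 was inside the control range (408 CPM against 624, 504 and 311 CPM). The p53 gene Trp53 itself was lower (36 CPM against 99.5, 107 and 104 CPM), as was the repair gene Ddb2 (1.76 CPM against 4.06, 6.27 and 5.95 CPM).

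Of 27 core apoptosis genes (29 listed), 8 were called higher and 4 lower, with a median of 0.52 (-0.35 with library totals, 1 higher and 6 lower). The apoptosome gene Apaf1 stood at 155 CPM against 34.4, 40.4 and 32.2 CPM and the initiator gene Casp8 at 304 CPM against 84.7, 77 and 88.1 CPM. Protective members were also higher, including Mcl1 (554 CPM against 215, 185 and 236 CPM) and Bcl2l1 (94 CPM against 46.3, 39.4 and 35.1 CPM), while Bcl2 was lower (8.49 CPM against 33.6, 22.4 and 17.9 CPM).

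**Figure D2:**
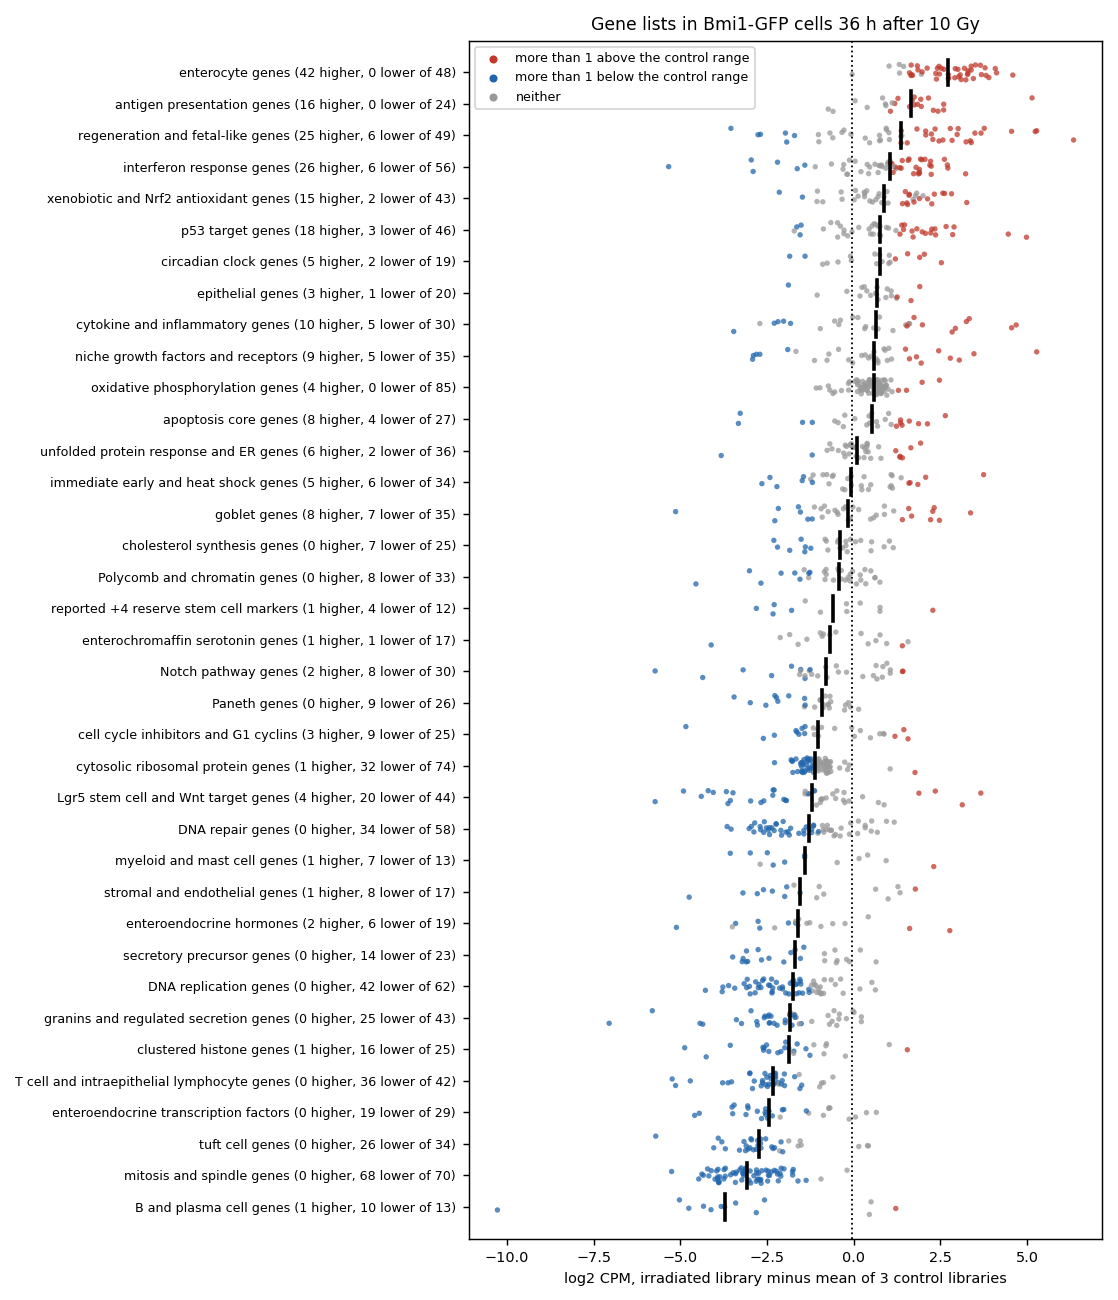
Difference in log2 CPM between the irradiated library and the mean of the 3 control libraries for each member (points) of 37 gene lists with 10 or more measured genes; red and blue points lie more than 1 beyond the control range, black bars are list medians and the dotted line is the median of all 13498 genes (-0.06). Enterocyte genes have the highest median (2.73) and B and plasma cell genes the lowest (-3.73).

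Enterocyte genes were the counterpart of the division genes. Of 48 genes (48 listed), 42 were called higher and 0 lower, with a median difference of 2.73 that stayed positive with library totals (1.87, 32 called higher). The apolipoprotein gene Apoa4 stood at 35937 CPM against 1472, 736 and 3078 CPM and Apob, the structural protein of chylomicrons, at 9088 CPM against 414, 436 and 791 CPM. Fabp1, an intracellular carrier of fatty acids, was at 19004 CPM against 2398, 1498 and 3237 CPM. The lactase gene Lct (2362 CPM against 183, 91 and 299.6 CPM), the trehalase gene Treh (1714 CPM against 122, 65.1 and 191 CPM) and the angiotensin-converting enzyme gene Ace (1952 CPM against 119.9, 69.9 and 182 CPM) followed, all brush border hydrolases. Alpi, the intestinal alkaline phosphatase that marks mature enterocytes, stood at 3757 CPM against 647, 305 and 903 CPM. Hnf4a, a transcription factor of the intestinal epithelium, was not called (314 CPM against 345, 303 and 327 CPM), while its relative Hnf4g was called higher (1282 CPM against 297, 251 and 468 CPM).

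The list took 216990 CPM in sum in the irradiated library against 24846, 17329 and 38241 in the controls, or 14.2% of all counts against 2.97%, 2.18% and 4.28%. Among the controls, replicate 3 had the highest sum and replicate 2 the lowest. More enterocytes in the sorted cells and more enterocyte RNA per cell cannot be told apart in these bulk libraries, and the same holds for each cell type below. A match to CAAAGTCCA or CAAAGGTCA, either strand, the kind of site HNF4 proteins bind, was in the promoter windows of 4 of 38 of these genes, against 1.14% of matched genes kept.

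Detoxification genes were higher in part. Of 43 genes of xenobiotic metabolism and antioxidant defence (44 listed), 15 were called higher and 2 lower (median 0.88, and 0.01 with library totals, 4 higher and 4 lower). Cyp4f14, a fatty acid hydroxylase, stood at 2649 CPM against 390.0, 256 and 528 CPM and the glutathione transferase gene Gsta4 at 415 CPM against 37.2, 24.4 and 88.9 CPM. Nqo1, a marker of the Nrf2 pathway, was inside the control range (73.9 CPM against 59, 63.1 and 97.8 CPM). Gpx1 was called lower (383 CPM against 972, 1041 and 1209 CPM), as was Aldh1b1, an aldehyde dehydrogenase gene of crypt progenitors (253 CPM against 949, 1227 and 1221 CPM). Nuclear genes of oxidative phosphorylation had a median of 0.58 (-0.28 with library totals, 1 higher and 7 lower), with 4 called higher and 0 lower of 85 (92 listed), a smaller share of higher calls than among all genes.

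**Figure D3:**
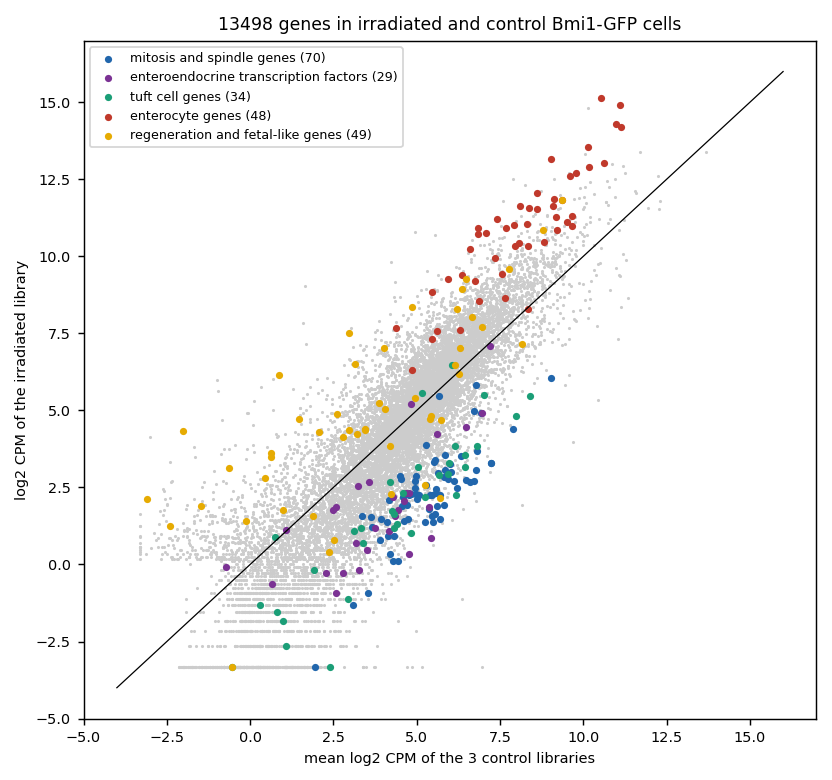
Log2 CPM of the irradiated library against the mean log2 CPM of the 3 control libraries for 13498 genes (grey) with 5 gene lists in colour; the diagonal marks equal levels. Of 48 enterocyte genes 42 were called above the control range, and 68 of 70 mitosis genes below it.

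Transcripts of enteroendocrine cells, which control Bmi1-GFP libraries held at high levels, were low. Of 29 transcription factor genes of this lineage (32 listed), 19 were called lower and 0 higher (median -2.45). Neurog3, which starts the endocrine fate, stood at 0.424 CPM against 4.52, 11.8 and 3.66 CPM, resting on 7 reads. Neurod1, which acts after it, was at 29.8 CPM against 164, 136 and 87.4 CPM. Etv1, another transcription factor gene on the list, lay further from the controls (1.70 CPM against 37.6, 56.4 and 38 CPM). The secretory precursor list gave 14 lower and 0 higher of 23 (24 listed), although Atoh1, the factor required for all secretory cells, was inside the control range (19.4 CPM against 19.6, 26.4 and 18.3 CPM) and its partner in lateral inhibition, the Notch ligand gene Dll1, was not called (66.1 CPM against 31, 52 and 46.9 CPM).

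Hormone genes varied. Gip, an incretin of K cells, stood at 40.0 CPM against 2057, 1768 and 742 CPM, a difference of -5.12. Gcg, which encodes proglucagon, was at 71 CPM against 769.9, 1215 and 461 CPM, ghrelin (Ghrl) at 399 CPM against 2932, 2487 and 2455 CPM and cholecystokinin (Cck) at 329 CPM against 2621, 1988 and 2122 CPM. All 4 were called lower, together with secretin (Sct, 239 CPM against 1352, 659 and 773 CPM). Somatostatin (Sst) lay inside the control range, at 414 CPM against 1244, 609 and 332 CPM. Of 19 hormone genes (30 listed), 6 were called lower and 2 higher. The higher ones were Edn1, the vasoconstrictor endothelin (114 CPM against 18.6, 16.6 and 14.9 CPM), and Adm (5.94 CPM against 2.32, 2.56 and 1.10 CPM), both made by many cell types.

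Genes of serotonin-producing enterochromaffin cells gave few calls, with 1 higher and 1 lower of 17 (19 listed, median -0.69). With library totals 0 were higher and 7 lower, with a median of -1.56. Tph1, the rate-limiting enzyme of serotonin synthesis, stood at 97.2 CPM against 508, 265 and 114 CPM and the granin gene Chga at 321 CPM against 1935, 1682 and 477 CPM, both below the lowest control by less than the margin. Control replicate 3 held the lowest value of both, so the control range was wide. The higher gene was Slc6a4, the serotonin transporter, which enterocytes use to take serotonin up (155 CPM against 60.1, 57.8 and 58.1 CPM), and the lower one was Adra2a (1.15 CPM against 20.4, 26.7 and 18.5 CPM). Of 43 genes of granins and regulated secretion (45 listed), 25 were lower and 0 higher. The carboxypeptidase gene Cpe stood at 68 CPM against 517, 636 and 457 CPM and the secretogranin gene Scg2 at 79.7 CPM against 436, 508 and 474 CPM. Pcsk1n had 0 reads after irradiation against 41.7, 29.4 and 1.85 CPM in the controls, which vary widely; against a floor of 3 reads in the irradiated library, the control mean was at least 134-fold higher.

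Tuft cell genes were lower in 26 of 34 cases (35 listed) and higher in 0 (median -2.73). Trpm5, the taste-signalling channel of tuft cells, stood at 14.3 CPM against 150.4, 136 and 69.6 CPM, the kinase gene Dclk1 at 14.2 CPM against 97.3, 85.5 and 44.3 CPM and the villin relative Avil at 8.79 CPM against 144, 110.2 and 41.9 CPM. Pou2f3, the factor that specifies the lineage, was below the controls by less than the margin (2.18 CPM against 16.2, 15.7 and 3.88 CPM). Control replicate 3 was the lowest control for all 4 of these genes.

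Goblet genes were mixed, with 8 higher and 7 lower of 35 (35 listed) and a median of -0.16. The share called lower was near the 20.7% of all genes. With library totals 4 were higher and 14 lower, with a median of -1.02. The gel-forming mucin gene Muc2 stood at 1021 CPM against 321, 239 and 433 CPM, Fcgbp at 4899.8 CPM against 751, 904 and 1729 CPM and the lectin gene Zg16 at 5796 CPM against 329, 443 and 1209.5 CPM, all called higher. Retnlb, an antimicrobial product of goblet cells, had 0 reads against 7.71, 6.98 and 0.705 CPM. Spdef, a goblet and Paneth transcription factor, was not called (11.3 CPM against 17.8, 17.4 and 12.8 CPM). Paneth genes gave 9 lower and 0 higher of 26 (30 listed, median -0.92). The lysozyme gene Lyz1 stood at 2957 CPM against 5153, 6139.7 and 3774 CPM and was not called, and the angiogenin gene Ang4 was lower (158 CPM against 1159, 914 and 427 CPM). Reads of alpha-defensin genes can be shared between copies, and of those the table lists, Defa22 (12.7 CPM against 92.4, 131 and 34 CPM) and Defa21 (15.3 CPM against 101, 101 and 36.6 CPM) were called lower while Defa24 was not (141 CPM against 317, 280.3 and 240.0 CPM).

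Genes of crypt regeneration and of the fetal-like epithelium were higher in 25 of 49 cases (59 listed) and lower in 6, with a median of 1.37 (0.51 with library totals, 16 higher and 10 lower). The epidermal growth factor receptor ligand genes Ereg (71.2 CPM against 1.33, 0.954 and 4.01 CPM) and Areg (611 CPM against 102, 67.6 and 101 CPM) were among them. Il33, an alarmin released by damaged barrier cells, stood at 184 CPM against 6.55, 7.83 and 9.12 CPM, and Il1rn, the natural antagonist of interleukin 1, at 19.9 CPM against 0.232, 0.351 and 0 CPM. Lamb3, a chain of epithelial laminin, was at 90.8 CPM against 10.6, 10.2 and 6.17 CPM and Emp1 at 329.8 CPM against 29.5, 17.2 and 49 CPM. The annexin gene Anxa10 was at 8.61 CPM against 1.39, 0.201 and 0.485 CPM; the abundant Anxa2 was higher too (1856 CPM against 505, 368 and 461 CPM). All 8 were among the members called higher.

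The list was not uniform. Ly6a, the Sca-1 antigen often used to mark fetal-like repair, was above each control by less than the margin (17.6 CPM against 10.6, 7.18 and 4.14 CPM). Ctgf and Cyr61 are targets of the Hippo pathway effector Yap. Ctgf lay above the range by more than the margin at a low level (2.30 CPM against 0.232, 0.100 and 0 CPM, resting on 38 reads). Cyr61 was not called (89.5 CPM against 75.8, 80.5 and 58.9 CPM). Basp1 (4.36 CPM against 72.7, 62 and 31.1 CPM) and Anxa6 (5.82 CPM against 39.4, 47.8 and 29.6 CPM) were called lower. Krt20, which this list shares with the enterocyte list, was higher (3619 CPM against 499, 495 and 1152 CPM). Enterocyte transcripts moved with the regeneration list, and their part in its values was not tested.

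Among niche growth factors and receptors, 9 of 35 (41 listed) were called higher and 5 lower (median 0.59, -0.27 with library totals, 5 higher and 10 lower). Besides the ligands above, Wnt4 stood at 18.9 CPM against 1.45, 1.15 and 2.51 CPM, the morphogen gene Bmp2 at 67.7 CPM against 23.1, 15.5 and 15 CPM and the hepatocyte growth factor receptor gene Met at 109 CPM against 28.1, 26.3 and 40.6 CPM. The receptor genes Egfr (33.5 CPM against 26.5, 27 and 26.4 CPM) and Igf1r fell on different sides of the rule, with Egfr not called. Dusp6, a phosphatase that ERK signalling induces and that limits ERK, was at 667 CPM against 48.9, 45.7 and 54.9 CPM, 13.4 times the control mean. It was listed with immediate early genes, of which Fos stood at 2466 CPM against 1458, 1042 and 1052 CPM, Egr1 at 528 CPM against 917, 851 and 646 CPM and Jun at 1182 CPM against 1086, 1031 and 612 CPM, none called. Of 34 immediate early and heat shock genes (34 listed), 5 were higher and 6 lower, or 1 and 13 with library totals. With TMM scaling both shares were near those of all genes (14.0% higher and 20.7% lower). The orphan receptor gene Nr4a1 was lower (26.4 CPM against 197, 194 and 119.7 CPM), the transcription factor gene Klf4 was higher (269 CPM against 96.6, 42.3 and 63.8 CPM), and the chaperone gene Hsp90aa1 was among the lower ones (198 CPM against 478, 507 and 657 CPM).

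Interferon response genes were higher in 26 of 56 cases (57 listed) and lower in 6 (median 1.05). With library totals the median was 0.19, with 8 higher and 7 lower. Zbp1, a sensor of nucleic acids that can start necroptosis, stood at 244 CPM against 32.1, 18.9 and 29 CPM, the oligoadenylate synthetase gene Oas3 at 47.6 CPM against 7.48, 5.37 and 9.43 CPM, Ifit1 at 109 CPM against 20.1, 9.64 and 23.1 CPM and the ubiquitin-like modifier gene Isg15 at 87.3 CPM against 21.4, 14.5 and 20.4 CPM. The transcription factor gene Irf1 was not called (396 CPM against 233, 217 and 223 CPM). Members in the other direction included the membrane proteins that block virus entry, Ifitm2 (24.2 CPM against 171, 202 and 195 CPM) and Ifitm3 (18.2 CPM against 124, 162 and 129 CPM), and Iigp1, with 0 reads against 4.99, 4.02 and 3.13 CPM.

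Promoters of 3 of the higher genes are shown because interferon genes carry a known response element, with its core, a pair of GAAA runs with any 2 bases between them, on either strand in capitals and windows as above.
Ifit1 (chr19:34640769-34640918, plus strand): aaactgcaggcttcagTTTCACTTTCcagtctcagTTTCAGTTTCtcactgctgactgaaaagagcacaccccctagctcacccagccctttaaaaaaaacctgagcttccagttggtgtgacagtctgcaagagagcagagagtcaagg
Isg15 (chr4:156200789-156200938, minus strand): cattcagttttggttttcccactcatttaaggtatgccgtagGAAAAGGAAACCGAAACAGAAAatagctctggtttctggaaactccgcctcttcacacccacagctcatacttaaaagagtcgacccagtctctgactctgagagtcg
Oas3 (chr5:120777630-120777779, minus strand): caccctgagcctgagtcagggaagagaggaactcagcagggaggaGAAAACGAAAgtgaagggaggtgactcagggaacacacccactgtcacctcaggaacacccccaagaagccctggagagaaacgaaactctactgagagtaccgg
This core was in the windows of 22 of 40 interferon response genes with a RefSeq match (55.0%), against 3.72% of matched genes kept, 4.65% of all genes called higher and 3.86% of those called lower. The shown genes were picked after their values and matches were seen.

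Genes of antigen presentation gave 16 higher and 0 lower of 24 (28 listed, median 1.65, 0.78 with library totals, 6 higher and 2 lower). The class II genes H2-Aa (2584 CPM against 507, 351 and 619 CPM) and H2-Ab1 (3759.7 CPM against 897, 689 and 974 CPM) and the invariant chain gene Cd74 (7832 CPM against 2266, 2027 and 2779.7 CPM), which load peptides for helper T cells, were called higher. Ciita, the master regulator of class II genes, was not (64.9 CPM against 35, 31.6 and 37 CPM). Of class I genes, H2-K1 stood at 4137 CPM against 1334, 1102 and 1451 CPM, H2-D1 at 851 CPM against 641, 391.6 and 437 CPM and B2m at 5604 CPM against 1576, 1401 and 2139 CPM, and H2-D1 was not called. H2-Bl ranged widely in the controls (1640.3 CPM against 68.3, 7.63 and 189 CPM). Reads of class I genes can be shared between near-identical copies.

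Antimicrobial lectins were among the most abundant genes that differed. Reg3b stood at 29130 CPM against 1025, 1483 and 955 CPM and its close relative Reg3g at 10199 CPM against 748, 1123 and 1470.2 CPM; both kill or repel bacteria at the mucosa and are induced through interleukin 22 and Stat3. The receptor gene Il22ra1 (75.2 CPM against 20.6, 17.4 and 19.1 CPM), Stat3 (299 CPM against 113, 96.5 and 101 CPM) and Socs3 (118 CPM against 37, 35.2 and 33.5 CPM), a Stat3 target, were called higher too. Whether these genes bear on the levels of Reg3b and Reg3g here was not tested. Reg1 lay just above control replicate 3 (1858 CPM against 491, 255 and 1799 CPM) and was not called. Il18 stood at 365 CPM against 49.8, 32.5 and 67.1 CPM and the chemokine gene Cxcl16 at 132 CPM against 19.9, 11.1 and 10.1 CPM, whereas the lymphocyte-derived Ccl5 was lower (36.8 CPM against 265, 148 and 151 CPM). In all, 10 of 30 cytokine and inflammatory genes (41 listed) were higher and 5 lower (median 0.64, -0.22 with library totals, 5 higher and 7 lower, and negative without the filter on low genes).

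Markers of other cell types moved with these results. T cell and intraepithelial lymphocyte genes were lower in 36 of 42 cases (50 listed) and higher in 0, and their summed level was 431 CPM against 3549, 2019 and 1625 in the controls. Ptprc, the leukocyte antigen CD45, stood at 11.8 CPM against 98.5, 62.6 and 44.2 CPM, Cd3e at 14.4 CPM against 94.7, 51.8 and 45.5 CPM and granzyme B (Gzmb) at 58.7 CPM against 615, 355 and 223 CPM. Of B and plasma cell genes, 10 of 13 (20 listed) were lower and 1 higher; Igj, the joining chain of secreted antibodies, had 0 reads against 150.4, 161 and 80.4 CPM, so that against a floor of 3 reads the control mean was at least 719-fold higher. The higher gene, Xbp1, is a secretory stress regulator that epithelial cells also use (686 CPM against 305, 289 and 296 CPM). The B and plasma cell sum was 894 CPM against 628, 642 and 523, most of it from Xbp1, Sdc1 and Blnk. Myeloid genes gave 7 lower and 1 higher of 13 (37 listed), and stromal and endothelial genes 8 lower and 1 higher of 17 (37 listed). The higher ones were Ctss, a protease of antigen processing (273 CPM against 51.1, 46.6 and 70.1 CPM), and Lyve1 (9.52 CPM against 2.67, 2.16 and 3.44 CPM). The myeloid and mast cell sum was 311 CPM against 200, 147 and 166, and Ctss gave most of the irradiated sum. Csf1r (0.424 CPM against 0.058, 0.301 and 0.573 CPM) and Cd68 (1.39 CPM against 1.74, 1.15 and 0.529 CPM) lay inside the control range. Itgam was not called (8.67 CPM against 9.62, 13.5 and 13.7 CPM). C1qa lay below each control (0.667 CPM against 3.42, 4.47 and 1.67 CPM). Cdh5 was at 0 in all 4 libraries, Cpa3 and Pecam1 at 0 in the irradiated one, and Pdgfra was at 0 in the controls. Cpa3 was at 0.174, 0.151 and 0 CPM in the controls. The part of these cells in the results for interferon, antigen presentation and cytokine genes was not tested.

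By the rule for single genes, the largest distances above the control range among genes with 20 CPM or more were those of Mbl2, the mannose-binding lectin (521 CPM against 3.19, 1.46 and 5.86 CPM), Atg9b (20.1 CPM against 0.116, 0.251 and 0.132 CPM), the sugar phosphate transporter gene Slc37a2 (141 CPM against 2.09, 2.61 and 5.42 CPM), the lyase gene Npl (53.9 CPM against 2.14, 0.502 and 1.32 CPM) and Tmigd1 (64.7 CPM against 1.74, 0.703 and 2.73 CPM). Slc6a3, Tmprss15, Akp3, Cym, Pdgfc and Slc34a2 were also among the 15, between 4.18 and 6.25 log2 units above the control mean, with Phlda3, Il33, Reg3b and Ereg. Tmprss15 encodes enteropeptidase, the enzyme that activates trypsinogen (228 CPM against 1.80, 1.20 and 10.8 CPM), and Akp3 an intestinal alkaline phosphatase (1776 CPM against 32, 10.5 and 86.5 CPM). Mbl2 differed by 7.38.

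At the other end, besides Igj, was Prelp, a matrix protein gene, with 0 reads in the irradiated library against 21.6, 38.1 and 30.1 CPM. Against the floor of 3 reads its control mean was at least 165-fold higher. Gsdmc4, of the gasdermin C cluster, stood at 0.364 CPM against 191, 83.9 and 34.7 CPM and the carbonic anhydrase gene Car4 at 3.70 CPM against 346, 249.7 and 269 CPM; reads of the gasdermin copies can be shared. The fatty acid desaturase genes Fads1 (3.39 CPM against 74.4, 92.7 and 83.3 CPM), Fads2 (4.06 CPM against 107, 152 and 81.9 CPM) and Scd2 (2.61 CPM against 81.9, 52.5 and 67.8 CPM) were on the list together. Cdo1, which starts the breakdown of cysteine, was at 2.42 CPM against 49.2, 54.2 and 59.8 CPM. Also among the 15 were Trim37, Plch2, Hist1h1b, Etv1, Gip and Olfm4.

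**Figure D4:**
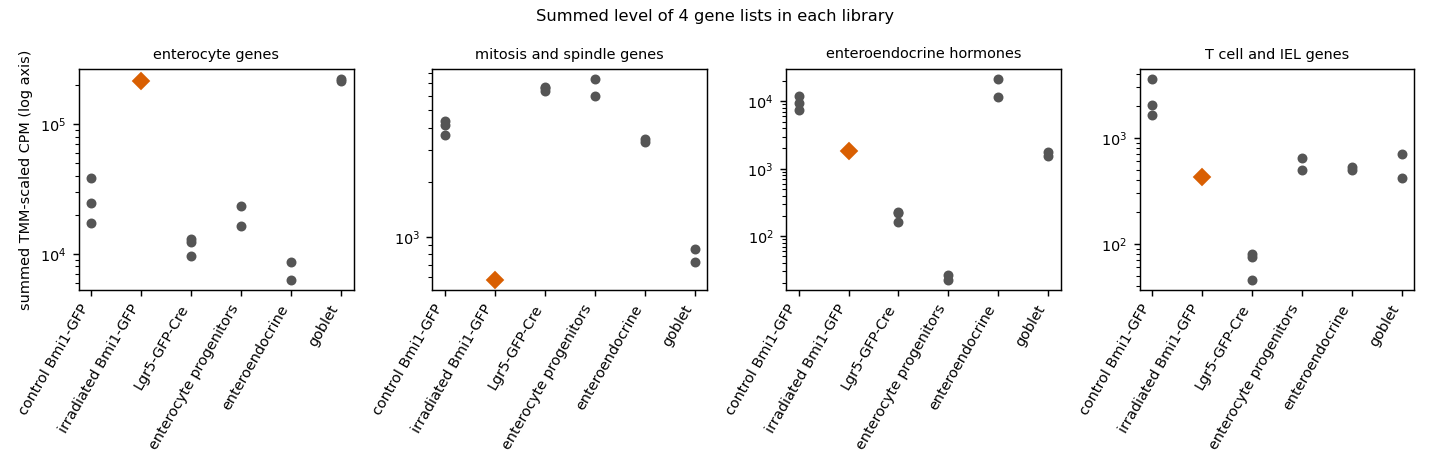
Summed TMM-scaled CPM (log axes) of 4 gene lists in each library of 6 groups; the orange diamond is the irradiated library and grey circles are single libraries of the other groups. The irradiated library lies beside the goblet libraries for enterocyte and mitosis genes and below every other group shown for mitosis genes.

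Set among other sorted cells of the series, the irradiated library was far from Lgr5-GFP-Cre stem cells in these sums. The groups were sorted by different reporters or markers as well as differing in cell type, and the part of each was not tested. Mitosis genes summed to 582 CPM, against 6601, 6393 and 6726 in Lgr5-GFP-Cre stem cells, and 857 and 728 in goblet cells. Enterocyte genes summed to 216990 CPM, against 23584 and 16261 in enterocyte progenitors and 221920 and 215140 in the goblet libraries, which carry enterocyte transcripts. Goblet genes were among the lists that separated the last pair, with 22673 CPM in the irradiated library and 83516 and 133650 in goblet cells. Cytokine and inflammatory genes, at 49745 CPM against 8634 and 9649 in goblet cells, differed the other way. So did antigen presentation genes (32607 against 13307 and 13546), oxidative phosphorylation genes (45252 against 18530 and 19057) and interferon response genes (6645 against 4344 and 5036). The untreated goblet libraries also held p53 target sums of 4531 and 5027 CPM, against 5813 in the irradiated library and 2556, 2172 and 2404 in its controls. Their regeneration list sums were 13312 and 15017 CPM, above the 9850 of the irradiated library, whose controls held 3037, 2531 and 3109. Apoptosis genes summed to 4628 and 4604.5 CPM in goblet cells, 5526 in the irradiated library and 2285, 1956 and 2620 in its controls. For DNA repair genes the sums were 571 and 536, then 556, then 1110, 1255.5 and 1156, in the same order. For DNA replication genes they were 822 and 804, then 883, then 2238, 2570.5 and 2487. Hormone genes, at 1863 CPM, were below both enteroendocrine libraries (21185 and 11713). Across the 13498 genes, which are not independent and share 1 scaling, Spearman's rho of the irradiated library was 0.907 with the mean of the goblet libraries and 0.908 with that of untreated CD274+CD69+ cells, the highest of the 11 other groups. It was 0.889 with the mean of its own controls and 0.778 with that of Lgr5-GFP-Cre cells. Each control library reached 0.980 to 0.985 with the mean of the other controls.

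**Figure D5:**
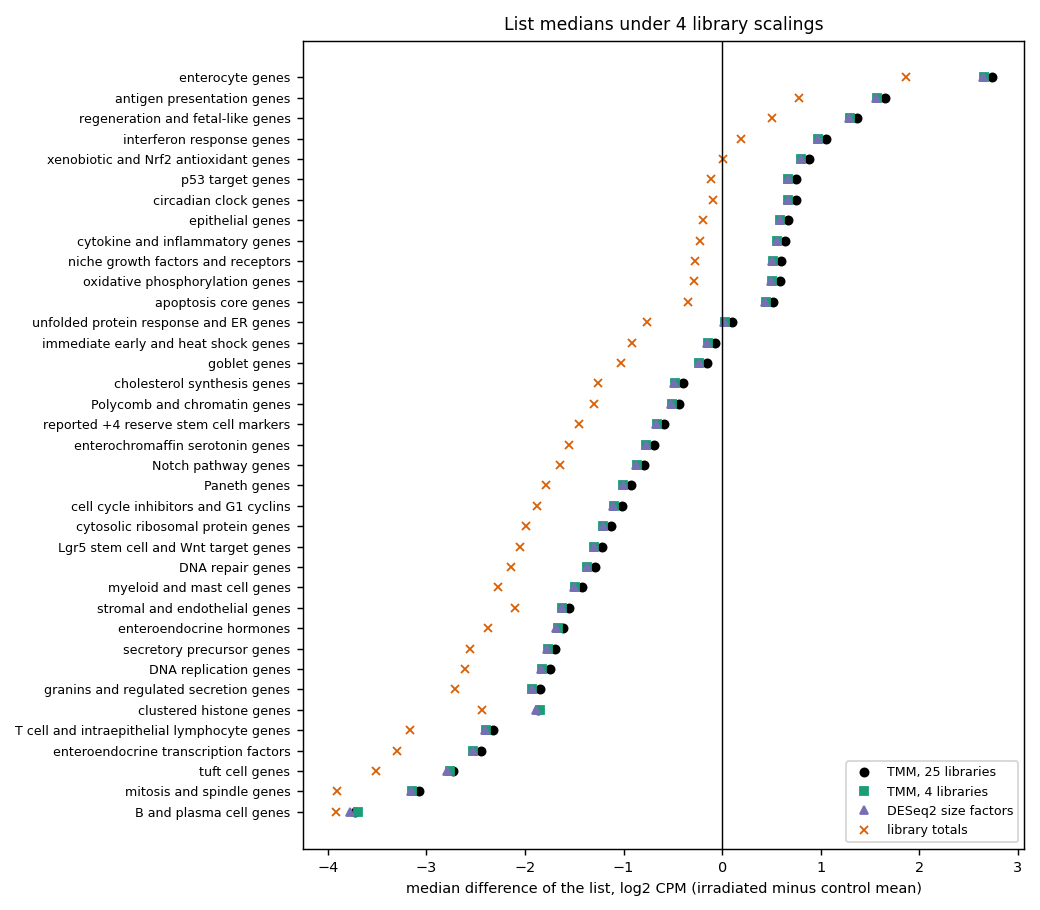
Median difference (log2 CPM, irradiated minus control mean) of 37 gene lists under 4 ways of scaling the libraries; symbols mark the scaling. Library totals move every list to lower values, while enterocyte and antigen presentation genes stay above 0 and mitosis genes stay below it.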

How the data were processed

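RNA of sorted cells was amplified with SMART-Seq v4 and sequenced single-end at 75 bases on a NextSeq 500, per the labels' protocols. The authors deposited raw read counts per gene, whole numbers over 24062 genes, and the submitters' processing notes name Bowtie2, TopHat2 2.0.6, DESeq2 and mm10; which program and annotation made the counts, and whether strand was used, is not given in the sources used here, so overlapping genes and near-identical copies may share reads. From these counts, edgeR 4.0.16 in R 4.3.3 gave TMM factors over 25 RNA libraries, and Python 3.11.15 with pandas 2.3.3 the CPM values and differences (prior count 2). Genes needed 1 CPM in at least 1 of 4 libraries. With 1 irradiated library, no p-value was computed; intervals are exact Poisson, 95%, and cover counting error only. The counting rule was run on simulated libraries with a small set of strongly changed genes. Scaling factors were given there and not estimated, so the run checked only how the rule works and not the scaling of the real libraries. Genes were named by a rule: 15 per direction furthest beyond the control range with 20 CPM or more, up to 5 per list and direction, the most abundant uncalled member of each list, and 4 check genes. Other named genes were chosen for their known roles or after their values were seen. The members and lists were chosen with earlier results of these data known. Promoter windows came from RefSeq (GRCm38.p6): of 13498 symbols 13455 matched RefSeq, and 10207 had a window. The alternatives were DESeq2 1.42.0 size factors, library totals, TMM over 4 libraries, a prior count of 0.5, filters, margins and leaving out each control. Another 24 samples of the series were not analysed here. Some genes that the naming rule gives are not reported here.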

Additional observations from a re-analysis of the deposited data

How the results depend on the processing

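The counts of genes outside the control range depended most on the scaling and the margin. With library totals 572 genes were called higher and 5319 lower, and all 572 were among the 1895. A margin of 0 gave 5567 higher and 5942 lower, and a margin of 2 gave 446 and 1203. Requiring 10 CPM in at least 1 library left 1497 lower, since fewer genes are tested. Leaving out 1 control gave 1970 to 2329 higher and 2848 to 3236 lower. DESeq2 size factors, TMM over 4 libraries, a prior count of 0.5 and no filter moved both counts by less than 1.5 times. Of the genes named by the rule, 0 of those called changed direction under any setting run. That covers a change of sign and not a lost call. With library totals, the differences of 238 of the 272 genes named by the rule moved by at least the standard deviation of the 3 controls. The median changed sign with library totals for p53 target, apoptosis, cytokine, epithelial, unfolded protein response, clock, niche and oxidative phosphorylation genes. It also changed sign without a filter for cytokine and red blood cell genes, at 10 CPM for B and plasma cell genes (0.47) and immediate early genes, and for the latter without control replicate 1 or 3. The causes were not tested. No paired analysis was possible because the irradiated group has 1 library, and the labels do not pair it with a control. Depth limits genes at low levels: 3 reads of the irradiated library correspond to 0.182 CPM.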

Other observations

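Cytosolic ribosomal protein genes were low in the irradiated library. Of 74 (80 listed), 32 were called lower and 1 higher, with a median difference of -1.13, and they took 0.643% of counts against 2.34%, 2.8% and 2.51% in the controls. Many have processed pseudogenes that can share their reads. Genes of cholesterol synthesis gave 7 lower and 0 higher of 25 (25 listed, median -0.40): the squalene synthase gene Fdft1 stood at 28.7 CPM against 112, 97.1 and 102 CPM.

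Of 19 circadian clock genes (20 listed), 5 were called higher and 2 lower (median 0.75, -0.10 with library totals, 2 higher and 5 lower). Npas2 stood at 79.8 CPM against 21, 20.1 and 22.9 CPM and Cry1 at 34.7 CPM against 12.6, 10.4 and 12.4 CPM, and the core gene Arntl was not called (70.4 CPM against 51.2, 45.7 and 41.9 CPM). The hour of harvest is not given in the sources used here. Polycomb and chromatin genes gave 8 lower of 33 (33 listed), near the 20.7% of all genes called lower, and 0 higher (median -0.43). Those lower included Dnmt1, which copies DNA methylation at replication (8.85 CPM against 59.8, 63.8 and 49.1 CPM), and Tet1, which starts its removal (0.0606 CPM against 3.83, 3.41 and 3.83 CPM), while Ezh2 (21.3 CPM against 37.4, 37.8 and 40.0 CPM) and Suz12 (49.7 CPM against 57.7, 43.5 and 61.5 CPM), subunits of the complex that methylates histone H3, were not called.

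Genes of the unfolded protein response gave 6 higher and 2 lower of 36 (36 listed, median 0.10, -0.76 with library totals, 0 higher and 7 lower). The share called higher was near the 14.0% of all genes. Dnajb9, a target of Xbp1, stood at 156 CPM against 40.1, 35.1 and 48.4 CPM and the chaperone gene Hspa5 at 1325 CPM against 837, 1012 and 1223 CPM, the latter not called. Red blood cell genes had 2 members of 12 listed that passed the filter, Epb4.2 (0.788 CPM against 3.19, 4.87 and 1.45 CPM) and Klf1 (0.849 CPM against 0.638, 0.452 and 1.54 CPM), neither called. Of 20 epithelial genes (20 listed), 3 were higher and 1 lower (median 0.67, -0.20 with library totals, 0 higher and 2 lower); the lower one was Krt18 (485 CPM against 2522, 2194 and 1038 CPM).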
